A study of Homo sapiens with 4 samples.

Results

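HOX genes encode homeodomain transcription factors that stand in 4 clusters in the human genome. HOXA lies on chromosome 7, HOXB on chromosome 17, HOXC on chromosome 12 and HOXD on chromosome 2. In the embryo the genes are switched on in the order in which they lie in a cluster, from low to high paralog number, and their combination marks position along the head-to-tail axis. Fibroblasts keep much of this positional pattern in culture. In the developing lung the genes of the middle paralog groups in HOXA and HOXB are active in the mesenchyme, and in the mouse Hoxa5 and Hoxb5 take part in airway formation. HOX proteins bind DNA together with TALE homeodomain cofactors of the PBX, MEIS and PKNOX families. Polycomb proteins keep silent HOX genes silent, Trithorax proteins such as KMT2A keep active ones active, and retinoic acid switches on the low-numbered genes.

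The HOX cluster genes were taken as every protein-coding row of the expression table whose symbol is HOX followed by a cluster letter from A to D and a number. This rule gave 39 of the 58219 genes of the table, namely 11 of HOXA, 10 of HOXB, 9 of HOXC and 9 of HOXD. The cells were WI-38, a line of normal fibroblasts from human embryonic lung, which had been irradiated with 10 Gy to make them senescent and were harvested at day 8. The siCTL group received a scrambled control siRNA and the siG3BP1 group an siRNA against exon 4 of G3BP1, which encodes a stress granule protein, so that all libraries come from senescent cells of 1 line. Total RNA was sequenced from 2 libraries per group, called A and B. The labels do not say whether A and B are separate cultures, so that the p-values below cover no more than the spread among these libraries, which may be technical.

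A level below is a normalized read, that is, the reads counted in a gene divided by a size factor of the library. Between 16944404 and 22745000 reads per library were counted in genes. G3BP1 itself fell from 2675 and 2522 normalized reads with siCTL to 201.2 and 271.2 with siG3BP1, a log2 fold change of -3.47 (limma, adjusted p = 9.10e-21). All 10 fibroblast markers examined were above the detection minimum of the test in these libraries. Also above it were 3 of 7 epithelial, 2 of 5 endothelial, 1 of 5 immune and 2 of 4 muscle markers. Markers with 0 reads in every library included SFTPC and NKX2-1 of lung epithelium, CDH5 of endothelium and the myogenic genes MYOD1 and MYOG. The endothelial receptor gene TEK was listed at between 929.1 and 4453 normalized reads. The summed level of the epithelial markers was between 960.3 and 2258 normalized reads. Fold changes between the groups followed the GC content of the genes, with a Spearman correlation of 0.797 across the tested genes, which are not independent replicates.

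HOX RNA in these fibroblasts came almost wholly from HOXB and HOXA genes with paralog numbers up to 8. HOXB members held 90.7% of the reads counted in HOX genes in siCTL A (95% Wilson interval 89.7 to 91.6), 86.1% in siCTL B (85.1 to 87.0), 95.3% in siG3BP1 A (94.7 to 95.8) and 87.6% in siG3BP1 B (86.8 to 88.5). HOXA members held nearly all of the rest, at 9.26%, 13.6%, 4.61% and 12.2% in the same order. These intervals cover counting error only. The share of HOXA was higher in both B libraries than in both A libraries.

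Of the 39 members, 13 had a mean of at least 10 normalized reads and were tested, 6 of them in HOXA and 7 in HOXB. Another 14 had at least 1 read but a lower mean, and 12 had 0 reads in all 4 libraries, which allows up to 3 reads per library, or 1.84 to 3.30 normalized reads. No HOXC or HOXD member was tested. Of the 16 members of paralog groups 9 to 13, which pattern the trunk end, the limbs and the genital tract in the embryo, 0 were tested, and the highest of them was HOXA10 with a mean of 6.10 normalized reads. At this depth their RNA was at or near the limit of detection, and whether they differed between groups could not be tested.

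**Figure D1:**
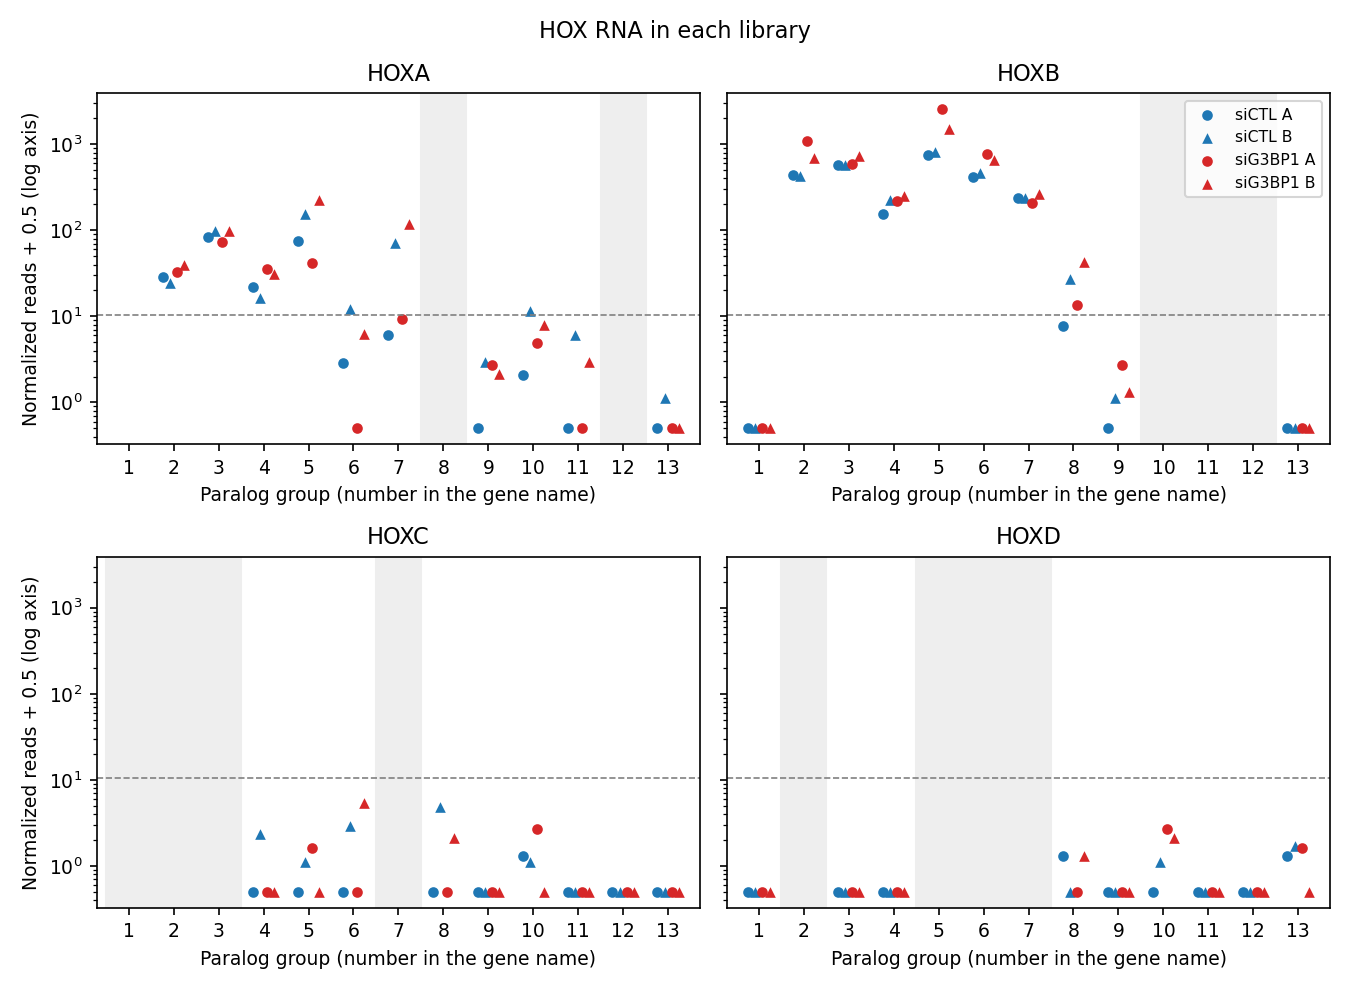
Normalized reads plus 0.5 (log axis) of 38 HOX members by paralog group, with 1 panel per cluster. Circles are A libraries and triangles B libraries, siCTL in blue and siG3BP1 in red, the broken line is the minimum mean of 10 for testing, and grey columns are paralog groups that a cluster lacks. HOXB2 to HOXB7 lie highest, HOXC and HOXD members lie below the line, and HOXA7 differs more between letters than between groups.

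Levels of different genes were compared per kilobase of exonic length in the siCTL libraries. HOXB5 was highest, at 405.4 and 434.8 normalized reads per kilobase in siCTL A and B. HOXB2 followed at 180.4 and 175.7, and HOXB6 at 159.7 and 179.3, and the libraries of these neighbours overlapped. HOXB7 was at 156.0 and 155.2 normalized reads per kilobase, below both libraries of HOXB6. HOXB4 at 77.4 and 110.8, HOXB3 at 76.2 and 77.8 and HOXA5 at 43.6 and 90.5 overlapped each other. HOXA3 at 19.3 and 22.6 normalized reads per kilobase stood below these. HOXA7 spread from 2.32 in siCTL A to 29.5 in siCTL B and so overlapped with HOXA3, HOXA2 and HOXA4. HOXA2 at 12.0 and 10.2, HOXA4 at 12.5 and 9.22 and HOXB8 at 2.99 and 10.96 normalized reads per kilobase overlapped at the low end.

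The question put to these libraries is which HOX RNAs differ in senescent fibroblasts depleted of G3BP1. HOXB5 and HOXB2 were higher in siG3BP1 libraries, and the other 11 tested members did not pass the test. With limma, 2 of 13 members were called higher, or 3 at an unadjusted p below 0.05. Of all 13422 genes tested, 25.9% were called higher and 30.5% lower. edgeR called 2 of 13 members higher, beside 23.4% of all genes, and DESeq2 3 of 13, beside 23.9%. The members called lower were 0 of 13 by limma, also at an unadjusted p below 0.05, and 0 of 13 by edgeR and by DESeq2, beside 32% and 26.6% of all genes. With only 13 members tested, the counts called higher are too small to set the members apart from all genes. The siG3BP1 libraries were both above the siCTL libraries for 6 of 13 members (HOXA2, HOXA4, HOXB2, HOXB3, HOXB5 and HOXB6), beside 42.8% of all genes tested, and both below for 0 of 13, beside 40.5%. The median log2 fold change was 0.45 over the tested members, 0.69 over those of HOXB and 0.39 over those of HOXA, against 0.04 over all genes tested.

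HOXB5, which acts in lung and neural crest development in the mouse, lies on chromosome 17 from 48591257 to 48593961 (GRCh38) and had the highest HOX level in every library. It was at 753.6 (A) and 808.3 (B) normalized reads with siCTL and at 2535 (A) and 1504 (B) with siG3BP1. Both siG3BP1 libraries lay above both siCTL libraries, but they differed more from each other than the siCTL libraries did. The log2 fold change was 1.32 with a standard error of 0.34 (n = 2 libraries per group, limma with Benjamini-Hochberg adjustment, adjusted p = 6.65e-04), and the ratio was 3.36 between the A libraries and 1.86 between the B libraries. HOXB5 took 26.5% of the HOX reads in siCTL A (95% Wilson interval 25.1 to 28.0), 25.1% in siCTL B (24.0 to 26.3), 44.5% in siG3BP1 A (43.2 to 45.9) and 32.0% in siG3BP1 B (30.8 to 33.2). Relative to HOXB7 of the same cluster, its reads were 3.18 and 3.43 times as many in siCTL A and B, 12.3 times in siG3BP1 A and 5.77 times in siG3BP1 B. For the adjacent HOXB6 the ratios were 1.81, 1.73, 3.32 and 2.27 in the same order of libraries, a smaller contrast. The rise was therefore unequal within the cluster. Without siCTL A the log2 fold change of HOXB5 was 1.27, and without siCTL B it was 1.37. Neither fit called HOXB5, but both also lost the calls of every gene list below. With 1 siCTL library left, they cannot show whether the call depends on either siCTL library.

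HOXB2, which specifies hindbrain segments in the mouse, lies on chromosome 17 from 48540894 to 48544989. It was at 443.0 (A) and 431.4 (B) normalized reads with siCTL and at 1101 (A) and 687.4 (B) with siG3BP1. The siG3BP1 libraries were again both higher, and again the A library was the higher one. The log2 fold change was 0.99 (standard error 0.34, limma adjusted p = 0.00917). HOXB2 was no longer called without siCTL A (limma adjusted p = 0.331) or without siCTL B (0.310), when libraries were scaled by their total reads (0.106), or after a correction for exonic length (0.0551).

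HOXB6, expressed in lung, skin and limb buds of the embryo, was at 415.9 and 467.0 normalized reads with siCTL (A, then B) and at 763.1 and 662.0 with siG3BP1. Its groups did not overlap, yet it did not pass the test (log2 fold change 0.69, standard error 0.34, limma adjusted p = 0.0681). DESeq2 called it higher (adjusted p = 0.0485) and edgeR did not (0.101). Exons of HOXB6 share 16.6% of their length with HOXB3 on the same strand and 16.3% with HOXB-AS3 on the other strand, so its level is uncertain to the extent that the counting split or dropped such reads.

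HOXB3, HOXB4 and HOXB7 had log2 fold changes nearer to 0. HOXB3, whose long transcripts span several of its neighbours, was at 566.0 and 577.9 normalized reads with siCTL (A, then B) and at 588.2 and 720.2 with siG3BP1 (log2 fold change 0.19, limma adjusted p = 0.644). HOXB4, known for expanding blood stem cells, was at 154.9, 221.8, 218.8 and 246.6 normalized reads in the order siCTL A, siCTL B, siG3BP1 A and siG3BP1 B. Its siG3BP1 A library lay within the siCTL range, and its log2 fold change was 0.32 (adjusted p = 0.412). HOXB7, which drives proliferation in several tumours, was at 237.1, 235.9, 206.7 and 260.5 normalized reads in that order. The siCTL libraries of HOXB7 lay between the siG3BP1 libraries, with a log2 fold change of -0.03 (adjusted p = 0.948). Scaling by total reads moved the median of all genes to -0.29 and gave log2 fold changes of -0.14 for HOXB3 and -0.0033 for HOXB4.

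HOXB8, a gene of myeloid progenitors, was the lowest tested HOXB member. It was at 7.18 (A) and 26.4 (B) normalized reads with siCTL and at 13.2 (A) and 42.6 (B) with siG3BP1, and the log2 fold change was 0.76 (standard error 0.51, limma adjusted p = 0.192). HOXB9 reached at most 2.20 normalized reads in any library, and HOXB1 and HOXB13 had 0 reads throughout. The tested members of HOXB thus ran without a gap from HOXB2 to HOXB8.

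**Figure D2:**
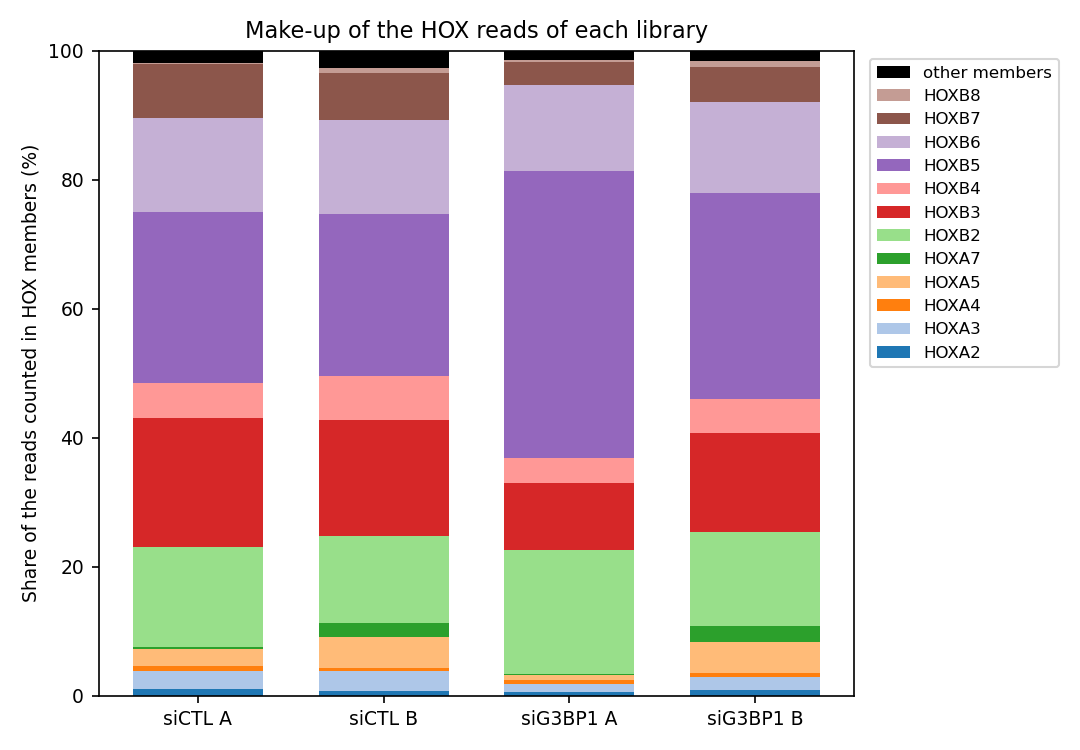
Share of the reads counted in all 39 HOX members (%, vertical axis) that fell in 12 of the tested members and, in black, in all others, for the 4 libraries on the horizontal axis. HOXB5 takes 44.5% in siG3BP1 A and 32.0% in siG3BP1 B against 26.5% and 25.1% in siCTL A and B.

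None of the HOXA members passed limma's test between siG3BP1 and siCTL, with 0 of 6 called in either direction and 0 of 6 also by edgeR and DESeq2, and at an unadjusted p below 0.05. HOXA2, which patterns the second pharyngeal arch, was at 27.9 and 23.9 normalized reads with siCTL (A, then B) and at 31.9 and 39.3 with siG3BP1. The groups of HOXA2 did not overlap, but the log2 fold change of 0.45 was close to its standard error of 0.45 (adjusted p = 0.389). HOXA3, which is required for the thymus and parathyroid in the mouse, was at 83.0 and 97.4 normalized reads with siCTL (A, then B) and at 72.6 and 98.3 with siG3BP1. Its siG3BP1 libraries lay on both sides of the siCTL libraries, with a log2 fold change of -0.09 (adjusted p = 0.842), which turned positive, to 0.29, under quantile normalization.

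HOXA4, the gene between HOXA3 and HOXA5, was at 21.6 and 15.9 normalized reads with siCTL (A, then B) and at 35.2 and 30.3 with siG3BP1. The groups did not overlap, and the log2 fold change was 0.80 (standard error 0.47, limma adjusted p = 0.133). Of its exonic length, 31.3% is shared with another annotated gene on the same strand and 16.5% with HOXA-AS2 and HOXA-AS3 on the other strand, so its level is uncertain.

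HOXA5, a regulator of lung development in the mouse, moved in opposite directions in the libraries of each letter. It was at 75.04 normalized reads in siCTL A and 40.7 in siG3BP1 A, but at 155.7 in siCTL B and 225.3 in siG3BP1 B. Both siCTL libraries lay between the siG3BP1 libraries, and the log2 fold change of -0.17 (standard error 0.36, limma adjusted p = 0.693) was positive with edgeR (0.13), with DESeq2 (0.17) and under quantile normalization (0.16). Without siG3BP1 A it was 1.06 and without siCTL B 0.35, but without siG3BP1 B it was -1.40 and without siCTL A -0.70. Its direction thus changed with the library left out.

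HOXA7, which is active in many leukaemias with KMT2A fusions, was at 5.59 normalized reads in siCTL A and 8.80 in siG3BP1 A, and at 71.1 in siCTL B and 116.3 in siG3BP1 B. It was higher in siG3BP1 within each letter, by 1.57 times in the A libraries and 1.64 times in the B libraries, while the groups overlapped widely (log2 fold change 0.66, standard error 0.47, limma adjusted p = 0.215). Standard errors of this fit follow the trend over all genes. In the GC-corrected fit, which takes more of each gene's own spread, they were 1.55 for HOXA7, 0.79 for HOXA5 and 0.85 for HOXB8. HOXA6 and HOXA10, the members with the next highest means, were too low to be tested. HOXA6 was at 2.39, 11.6, 0 and 5.74 normalized reads in the order siCTL A, siCTL B, siG3BP1 A and siG3BP1 B, and HOXA10, which acts in the uterus, was at 1.60, 11.03, 4.40 and 7.37. Both had more normalized reads in each B library than in each A library.

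**Figure D3:**
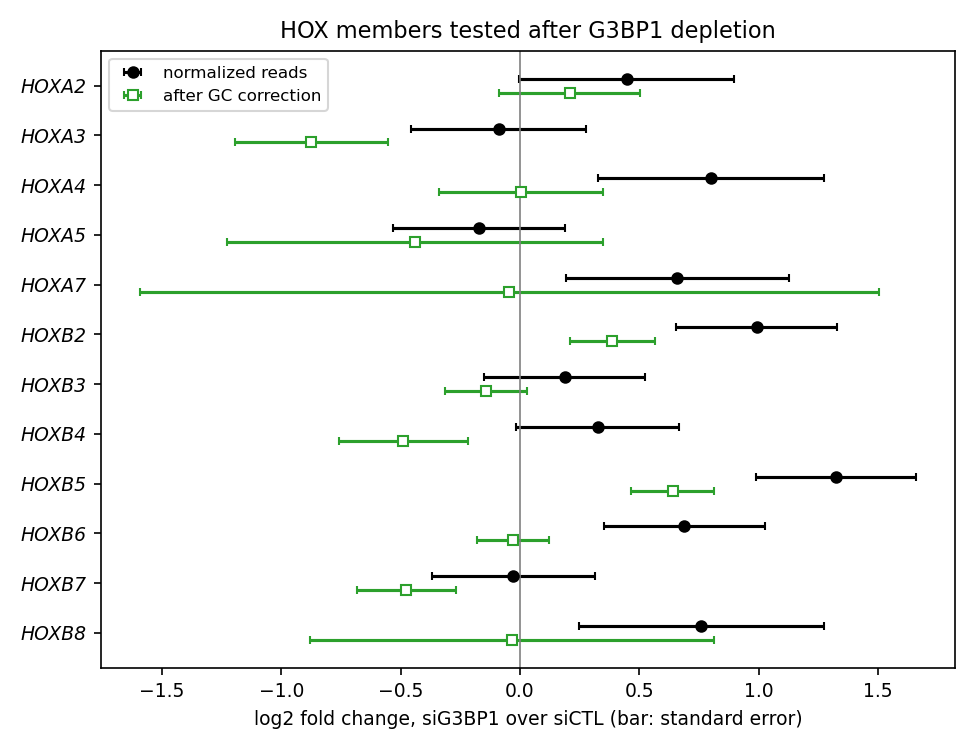
Log2 fold change of siG3BP1 over siCTL (horizontal axis) with its standard error for 12 of the 13 tested members, from the normalized reads (black circles) and after the correction for GC content (open green squares). HOXB5 and HOXB2 lie farthest to the right at 1.32 and 0.99, and after the correction HOXB5 is at 0.64 and HOXB2 at 0.39.

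The HOX members are richer in GC than most genes, and in these libraries such genes were higher in siG3BP1. The exons of the 13 tested members held 47.5% to 57.8% GC with a median of 55.1%, against a median of 47.9% over all genes tested. The 4389 tested genes within this range of GC content had a median log2 fold change of 0.62, and 36.5% of them were called higher by limma, beside 2 of 13 members and the members' median of 0.45. Of the 1218 genes with 55 to 58% GC, 57.6% were called higher, with a median of 0.86, and HOXB5 with 55.1% lies at the lower edge of this range. Of the 2113 genes with 50 to 55% GC, as HOXB2 with 53.9%, 36.2% were called higher, with a median of 0.62. Each library's values were therefore also fitted after removal of its trend with GC content. In that fit limma called 0 of 13 members, and at an unadjusted p below 0.05 it had 1 higher, HOXB5, and 1 lower, HOXA3. Of 13350 genes with a GC value it called 0% higher and 0.00749% lower, so that the corrected fit called almost no gene at all. HOXB5 kept the largest fold change of the members, at 0.64 (standard error 0.17, adjusted p = 0.0911), HOXB2 had 0.39 (standard error 0.18, adjusted p = 0.210) and HOXB6 -0.03 (adjusted p = 0.911). HOXA3 had -0.87 (standard error 0.32, adjusted p = 0.146), and the median over the members was -0.03 against 0.02 over all genes. The part of GC content in the differences was not tested further.

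**Figure D4:**
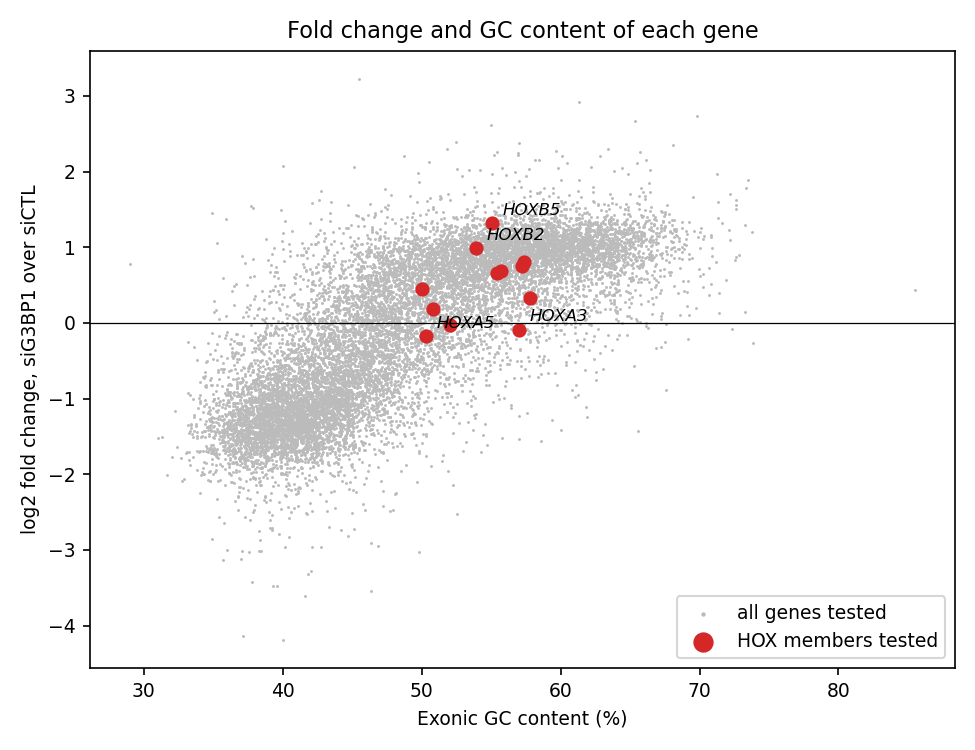
Log2 fold change of siG3BP1 over siCTL (vertical axis) against exonic GC content (%, horizontal axis), with all tested genes in grey and 12 of the 13 tested HOX members in red. HOXB5 at 1.32 and HOXB2 at 0.99 lie within the grey cloud of genes of like GC content, and HOXA3 at -0.09 lies below the median of 0.86 of genes with 55 to 58% GC.

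A second difference among the libraries ran between the letters A and B and was examined after the values had been seen. With the siRNA kept in the model, limma called HOXA7, HOXA5 and HOXB8 higher in the B libraries, 3 of 13 members, against 1.39% of all genes tested. It called 0 of 13 lower in B, also at an unadjusted p below 0.05 and by edgeR, beside 0.454% of all genes. HOXA7 was 12.7 times higher in siCTL B than in siCTL A and 13.2 times higher in siG3BP1 B than in siG3BP1 A. Its log2 difference was 3.60 (standard error 0.43, limma adjusted p = 1.29e-13), and it stood at rank 8 by p among the 13422 genes. HOXA5 was 2.07 times higher in B within siCTL and 5.54 times within siG3BP1 (log2 difference 1.75, standard error 0.38, adjusted p = 4.81e-04). HOXB8 was 3.67 and 3.23 times higher in B (log2 difference 1.73, standard error 0.46, adjusted p = 0.0119).

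HOXA7 and HOXB8 were the highest-numbered tested members of their clusters, and HOXA5 was the next tested member below HOXA7. Tested members numbered below HOXA5 in HOXA and below HOXB8 in HOXB did not pass the same test. HOXA4 had a log2 difference of -0.32 and HOXA3 of 0.33 between B and A, and HOXB7, next to HOXB8, had 0.16 (each with a limma adjusted p of 0.998). HOXA7 reads were 0.07 and 0.12 times those of HOXA3 in siCTL A and siG3BP1 A, but 0.73 and 1.18 times in siCTL B and siG3BP1 B. Among the 14 untested members with reads, 9 had more reads in the 2 B libraries together than in the 2 A libraries, 1 had fewer and 4 had as many, while the B libraries were also the deeper ones. The same count was not made over other genes with few reads, so it cannot set these members apart. All untested members together had 8 reads in siCTL A and 14 in siG3BP1 A, but 71 in siCTL B and 33 in siG3BP1 B. HOXC8, for instance, had 0 reads in both A libraries and 4.29 and 1.64 normalized reads in siCTL B and siG3BP1 B.

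Promoter windows of 300 bases from RefSeq (GRCh38.p14) were matched by symbol for 20 of the 39 members, 4 of them tested ones, in 27 windows. The windows of HOXA7, which showed the largest difference between letters, and of HOXA4, which showed none past the test, are printed here to set the 2 genes of 1 cluster side by side. Each runs from 250 bases before the start to 50 bases after it on the minus strand of chromosome 7. Capitals mark the GC box GGGCGG and the CCAAT box CCAAT, on either strand, so that a CCAAT box of the other strand reads as ATTGG.
HOXA7, chr7:27156626-27156925: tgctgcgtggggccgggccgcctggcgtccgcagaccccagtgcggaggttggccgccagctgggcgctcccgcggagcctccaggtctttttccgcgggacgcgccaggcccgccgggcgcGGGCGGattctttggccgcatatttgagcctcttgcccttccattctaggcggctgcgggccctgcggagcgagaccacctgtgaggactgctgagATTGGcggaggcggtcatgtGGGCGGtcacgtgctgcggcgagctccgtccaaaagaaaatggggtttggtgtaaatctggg
HOXA4, chr7:27130708-27131007: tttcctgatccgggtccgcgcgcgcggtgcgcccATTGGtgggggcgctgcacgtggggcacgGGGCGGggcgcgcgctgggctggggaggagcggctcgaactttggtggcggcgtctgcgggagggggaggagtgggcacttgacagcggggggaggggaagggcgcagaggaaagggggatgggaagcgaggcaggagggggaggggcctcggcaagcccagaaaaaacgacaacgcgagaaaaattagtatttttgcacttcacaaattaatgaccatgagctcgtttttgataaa

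The HOXA7 window held 2 GC boxes and 1 CCAAT box, and the HOXA4 window 1 of each, with no overlap between matches. Neither held a TATA box (TATAAA) or the PBX-HOX site TGATTNAT on either strand. GGGCGG was in 45.0% of all 35116 windows and in 13 of the 27 member windows, and CCAAT in 34.6% and in 18. TATAAA was in 11.5% of all windows and in 5 member windows, and TGATTNAT in 2.82% and in 2. The GC content was 68.0% in the HOXA7 window and 63.3% in the HOXA4 window, beside a median of 58.7% over all windows. The ratio of observed to expected CpG was 0.91 and 1.03, beside medians of 0.85 over member windows and 0.58 over all windows.

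Genes of other lists that differed between letters are given beside these members. DES, a muscle intermediate filament gene, was at 2.39 and 5.50 normalized reads in the A libraries of siCTL and siG3BP1 and at 27.0 and 52.4 in siCTL B and siG3BP1 B. It was 1 of 2 tested of the 4 muscle markers, whose sum ranged from 15.4 to 21.6 in the A libraries and from 65.6 to 68.0 in the B libraries, and MYOD1 and MYOG were at 0. The epithelial keratin gene KRT19 was at 35.1, 130.5, 131.9 and 326.1 normalized reads in the order siCTL A, siCTL B, siG3BP1 A and siG3BP1 B. Of the 7 epithelial markers it was the only one of 3 tested that differed between letters, and the summed levels, 960.3 and 2258 in the A libraries and 1125 and 1383 in the B libraries, overlapped. Of the fibroblast markers COL3A1 alone was called, at 12705 and 6549 normalized reads in the A libraries of siCTL and siG3BP1 and 29429 and 17616 in siCTL B and siG3BP1 B. Their part in the difference of HOXA7, HOXA5 and HOXB8 was not tested. HOXA-AS3, which covers 62.5% of the exonic length of HOXA7 on the other strand, was at 3.19, 6.13, 0 and 11.5 normalized reads in the order siCTL A, siCTL B, siG3BP1 A and siG3BP1 B, and although the libraries were stranded, whether the counting used the strand is not stated.

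**Figure D5:**
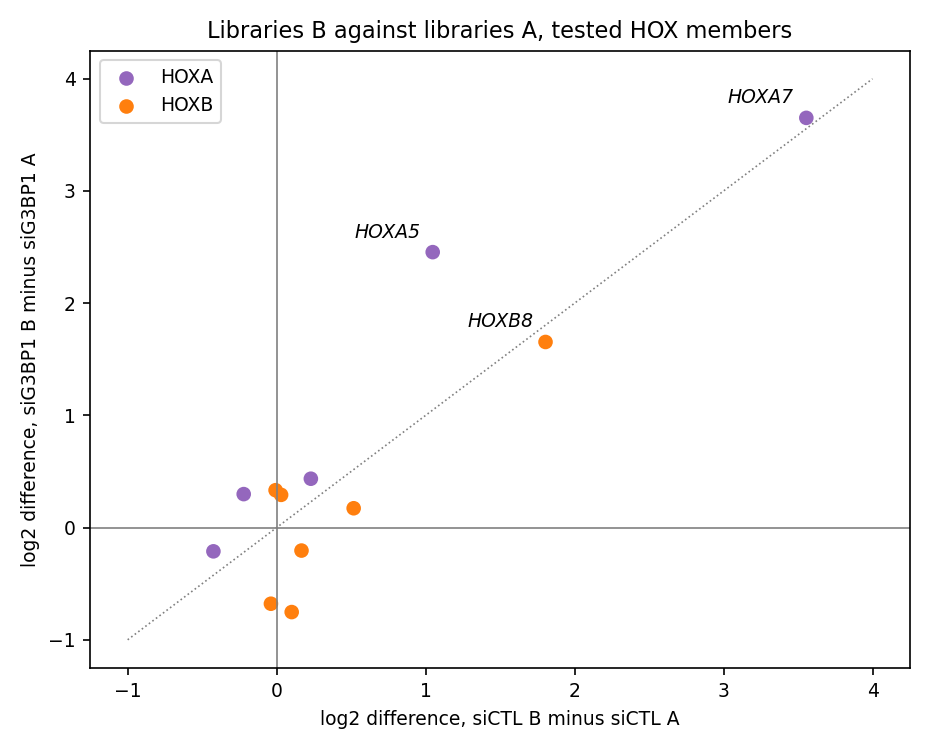
Log2 difference of library B minus library A in siG3BP1 (vertical axis) against the same in siCTL (horizontal axis) for 12 of the 13 tested members, HOXA in purple and HOXB in orange, with a dotted line of equality. HOXA7, HOXA5 and HOXB8 lie apart at the upper right, and the other 9 lie between -0.75 and 0.52 on both axes.

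Several noncoding RNAs are made from the HOX clusters, and 26 of the 28 listed are in the table. Of these 16 had 0 reads in every library and 3 were tested, of which HOXB-AS3 rose and HOXA-AS2 and HOXB-AS1 did not pass. HOXB-AS3, antisense to HOXB5 and HOXB6, was at 246.7 and 258.6 normalized reads with siCTL (A, then B) and at 813.6 and 562.9 with siG3BP1. The groups were wide apart, and the log2 fold change was 1.42 (standard error 0.34, limma adjusted p = 3.02e-04), and 0.69 after the GC correction (adjusted p = 0.0724). Reads of HOXB5 were 3.06, 3.13, 3.12 and 2.67 times those of HOXB-AS3 in siCTL A, siCTL B, siG3BP1 A and siG3BP1 B. Of the exonic length of HOXB5, 3.93% overlaps HOXB-AS3. HOTAIR, a noncoding RNA of the HOXC cluster, reached at most 1.10 normalized reads, HOTTIP of HOXA had 0 reads, and HOTAIRM1, also of HOXA, was at 7.98, 11.03, 2.20 and 5.74 normalized reads in the same order of libraries. The microRNA genes of the clusters were listed at 0.

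Of 10 tested TALE cofactors of HOX proteins, 4 fell, 1 rose and 5 did not pass limma's test, beside 30.5% lower and 25.9% higher over all genes. Their median log2 fold change was -0.54, against 0.04 over all genes. MEIS1, which binds DNA with HOX proteins, fell by 0.91 on the log2 scale (limma adjusted p = 0.0160) and MEIS2 by 0.91 (0.0240), whereas MEIS3 rose by 0.94 (0.0129). PBX3 had a log2 fold change of -0.71 (adjusted p = 0.0754). After the GC correction the log2 fold changes were -0.02 for MEIS1, -0.34 for MEIS2, 0.05 for MEIS3 and -0.24 for PBX3. The exonic GC content of the tested members of this list ran from 41.8% to 61.4%.

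Of 34 tested Polycomb genes, 11 rose, 12 fell and 11 did not pass, shares near the 25.9% higher and 30.5% lower of all genes. Their median log2 fold change was -0.22, against 0.04 over all genes. RYBP, a subunit of variant PRC1 complexes, was at 506.1 and 570.5 normalized reads with siCTL (A, then B) and at 126.4 and 206.5 with siG3BP1 (log2 fold change -1.73, limma adjusted p = 1.81e-05). EZH2, the methyltransferase of PRC2, was at 66.3, 73.5, 14.3 and 17.2 normalized reads in the order siCTL A, siCTL B, siG3BP1 A and siG3BP1 B, and fell by 2.12 on the log2 scale (adjusted p = 4.42e-05). The PRC1 ring proteins RNF2 and BMI1 fell by 1.54 (adjusted p = 1.55e-04) and by 1.41 (0.00115). After the GC correction the log2 fold changes were -0.63 for RYBP, -1.03 for EZH2, -0.31 for RNF2 and -0.29 for BMI1.

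Of 28 tested Trithorax and COMPASS genes, 9 rose, 7 fell and 12 did not pass limma's test, again near the 25.9% and 30.5% of all genes, with a median log2 fold change of -0.06. MLLT3 and AFF4, of elongation complexes, fell by 1.73 and 1.45 on the log2 scale, and PSIP1, which tethers KMT2A to chromatin, fell by 1.72. MEN1, which encodes the KMT2A partner menin, rose by 1.10 (adjusted p = 0.00415). KMT2A, the methyltransferase that maintains HOX transcription, was at 3081 and 2927 normalized reads with siCTL (A, then B) and at 1883 and 2600 with siG3BP1 (log2 fold change -0.44, adjusted p = 0.246). After the GC correction the log2 fold changes were -0.49 for PSIP1, 0.24 for MEN1 and 0.27 for KMT2A.

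In the retinoic acid and CDX list 9 of 21 genes were tested, of which 3 rose, 2 fell and 4 did not pass, beside 25.9% higher and 30.5% lower over all genes, and the median log2 fold change was 0.62. ALDH1A3 and RDH10, enzymes of retinoic acid synthesis, fell by 1.82 and 1.35 on the log2 scale (limma adjusted p = 1.79e-04 and 5.38e-04). The receptor genes RXRB and RARG rose by 1.05 and 0.82 on the log2 scale (limma adjusted p = 0.00610 and 0.0295). Of the genes that flank the clusters, 22 were tested, and 8 rose, 11 fell and 3 did not pass, beside the same 25.9% and 30.5%, with a median log2 fold change of -0.73 against 0.04 over all genes. CBX5 beside HOXC fell by 1.80 on the log2 scale, TAX1BP1 and SKAP2 beside HOXA by 1.66 and 1.59, and LNPK beside HOXD by 1.43. After the GC correction limma called 0 genes in each of these 6 lists, with 12 of 22 flanking genes, 9 of 34 Polycomb genes, 4 of 28 Trithorax and COMPASS genes, 3 of 9 retinoic acid and CDX genes, 1 of 10 TALE genes and 1 of 3 noncoding RNAs at an unadjusted p below 0.05. The median log2 fold changes were then 0.08, -0.01, -0.03, -0.30, -0.32 and 0.02 in the same order of lists, against 0.02 over all genes.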

How the data were processed

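Total RNA of senescent WI-38 fibroblasts was sequenced after siCTL or siG3BP1, with 2 libraries (A and B) per group. According to the study's methods the authors trimmed reads with Trimmomatic 0.35, aligned them to GRCh38 with STAR and a Gencode annotation, and normalized read counts with DESeq2 1.22.1. RSEM served them for TPM or FPKM values, which are not used here. TopHat2 2.0.10 and mouse builds also stand in the submitters' processing notes, with no role. The libraries were stranded, but the strand setting of the counting is not given in the sources used here. The authors deposited a signal for each library, which is the number of reads of a gene over that library's size factor (0.910 to 1.63). Multiplied back, 100% of the values were whole reads within 1e-06. Dividing by a size factor leaves out gene length, so genes were compared with each other per kilobase. The deposited columns of the authors' own comparison (log2 fold changes, p-values, a mean) were not used, and 0 columns belonged to no sample of the series.

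Genes with a mean of at least 10 over the 4 libraries (13422 of 58219) were tested with limma 3.58.1 in R 4.3.3, two-sided, with a mean-variance trend on log2(value + 0.5), Benjamini-Hochberg adjustment over all of them and a threshold of 0.05. Fold changes are on this log2(value + 0.5) scale, on which changes of low genes come out too small. Limma shrank the variances wholly to the trend, so that each standard error follows the trend over all genes. Exonic lengths, exon overlaps and GC content came from Gencode release 44 on GRCh38, which is newer than the authors' release. It gave a GC value for 99.5% of tested genes and for all tested members. Gene coordinates were those that the authors deposited with the genes. The GC correction removed a loess trend (span 0.3) from each library. edgeR 4.0.16 and DESeq2 1.42.0 were run on the recovered reads over the same genes. edgeR called 3145 genes higher and 4298 lower, and DESeq2 3203 and 3564. Before use, limma with and without the replicate block, the comparison of letters, edgeR and DESeq2 were tested on simulated data with known changes. Of the GC-corrected fits only those with the replicate block were simulated, and the other alternatives were not.

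Members described one by one are those that passed and those with the 15 highest means, and genes of the lists are the 4 with the smallest p among those that passed, plus HOTAIR, HOXB-AS3, HOTTIP, HOTAIRM1, EZH2, KMT2A, MEIS1 and PBX3. A few genes covered by this rule were left out of the text and figures. DES, KRT19 and COL3A1 were named after their values were seen. The members and lists were chosen with earlier results of these data known, and HOXB5 and HOXB-AS3 had been seen in a supplementary table. Alternatives were other pseudocounts, filters, scalings, corrections and tools, the letter as a block, and each library left out in turn. The comparison of letters was added after seeing the data. Sequences were read from a RefSeq table.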

Additional observations from a re-analysis of the deposited data

How the results depend on the processing

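Of the alternatives for the 13 tested members between siG3BP1 and siCTL, 201 kept direction and side of the threshold, 27 changed sign, 9 lost a call and 7 gained one without a change of sign, while HOXB4 with the GC correction and a replicate block changed sign and gained a call. HOX members called higher were 2, all in HOXB, and were 1 with total reads or with the length correction, 0 with the GC correction, 1 (HOXB5, adjusted p = 0.00194) with the GC correction and a replicate block, and 0 to 3 with a library left out. Members called lower were 0, but 3 (HOXA3, HOXB4 and HOXB7) with the GC correction and a replicate block and 0 to 1 with a library left out, HOXA5 without siG3BP1 B being the 1. Neither HOXB5 nor HOXB2 was called without siCTL A or without siCTL B, fits in which the lone siCTL library is assumed to vary like the others, and the cause was not tested.

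The log2 fold change turned negative with the GC correction, and likewise with it and a replicate block, for HOXA7 (-0.044), HOXB3 (-0.14), HOXB4 (-0.49), HOXB6 (-0.029) and HOXB8 (-0.033). With total reads it was -0.14 for HOXB3 and -0.0033 for HOXB4, and with the length correction -0.024 for HOXB4. It turned positive with quantile normalization for HOXA3 (0.29), HOXA5 (0.16) and HOXB7 (0.24), and for HOXA5 with edgeR (0.13) and DESeq2 (0.17). With a library left out it ran from -0.31 to 0.13 for HOXA3, from -1.40 to 1.06 for HOXA5, from -1.17 to 2.48 for HOXA7, from -0.19 to 0.14 for HOXB7 and from -0.14 to 1.66 for HOXB8. The causes were not tested.

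Called genes of the lists were 5 of the TALE cofactors, 23 of Polycomb, 16 of Trithorax and COMPASS, 5 of retinoic acid and CDX, 1 of the noncoding RNAs and 19 of the flanking genes. The GC correction gave 0 in each. With the GC correction and a replicate block they were 1, 9, 2, 3 and 12 for the TALE, Polycomb, Trithorax, retinoic acid and flanking lists. With a replicate block alone they were 2, 13, 6 and 3 for the first 4 lists. With total reads Polycomb had 13, Trithorax 9 and retinoic acid 2, with the length correction TALE had 2, without the trend Trithorax had 10 and retinoic acid 3, and among protein-coding genes alone no noncoding RNA is tested (0). With a library left out the lists had 0 to 7, 0 to 28, 0 to 23, 0 to 6, 0 to 1 and 0 to 22 calls in the same order.

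The letters A and B pair no samples by their labels. Deviations of same-letter libraries had a Pearson correlation of 0.30 and a Spearman correlation of 0.04 across genes, and a Pearson correlation of 0.48 after the GC correction. With the replicate block 2 members were higher, HOXB5 (adjusted p = 0.0110) and HOXB2 (0.0455). The B against A differences of HOXA7, HOXA5 and HOXB8 stayed called under each of the 5 alternatives run for them. With 2 libraries per group, the depth left 26 members untested.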
